A study of Mus musculus with 55 samples.

Results

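The DNA replication and mitosis genes described here are 45 mouse genes, out of 55421 genes in the first of 2 count tables. They were taken by symbol from a fixed list, which was chosen with earlier results of these data known. They form a group of 21 S-phase members and a group of 24 mitotic members, and every one of the 45 was found in both tables. The RNA came from sorted bone marrow cells of C57BL/6 mice. The first table holds 46 bulk RNA-seq libraries of 6 populations: long-term and short-term hematopoietic stem cells (LT-HSC and ST-HSC), common myeloid progenitors (CMP), granulocyte-macrophage progenitors (GMP), megakaryocyte-erythroid progenitors (MEP) and common lymphoid progenitors (CLP). Each population was taken from wildtype (WT) mice and from Tet2-/- mice, drawn as Tet2 KO in the plots, with 4 libraries per group except 3 in WT LT-HSCs and 3 in WT ST-HSCs. The Tet2-/- mice were Tet2 f/f Mx1-Cre animals, in which Cre is switched on by interferon in many cell types. They received 5 doses of poly(I:C) from 4 weeks of age and were analysed 16 weeks later. Whether the WT mice also received poly(I:C) is not given in the sources used here. The second table holds 9 LT-HSC libraries, 3 each from mice labelled WT, Sting-/- (a germline deletion, carried by every cell of the animal) and Tet2;Sting DKO, which joins that deletion to the same inducible Tet2 allele. The DKO mice also received poly(I:C) from 4 weeks of age, while the time of analysis of the second set is not given in the sources used here. The labels give 200 sorted cells per library and the methods another number. The study describes its RNA-seq samples as individual mice, while whether libraries of different populations came from the same mice is not given in the sources used here.

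The S-phase members carry out DNA copying. Cyclins E1 and E2 open S phase, Cdc6 and Cdt1 load the Mcm2 to Mcm7 helicase onto origins, Cdc45, Mcm10 and the Gins proteins switch it on, Pcna, Pole, Pola1 and Prim1 synthesise the strands, and Rrm1, Rrm2 and Tyms supply nucleotides. The mitotic members condense and separate the copied chromosomes, and most of them are transcribed late in the cycle, in G2 and mitosis. In bone marrow, long-term stem cells are known to be mostly out of cycle, while committed myeloid and erythroid progenitors divide often.

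Promoter letters, which use no expression value, differed in frequency between the S-phase and mitotic members. Shown are 6 promoters of genes named below, each with matches to the letters marked. The promoter of Ccne1, also named below, held no match to any of the letters searched. The windows are those of RefSeq on GRCm38.p6, reach from 250 bases before to 50 bases after the start of each gene and were found for 36 of the 45 members. They are written 5′ to 3′ on the strand of the gene. Mcm5 (chr8:75109259-75109558, plus strand) and Mcm6 (chr1:128359656-128359955, minus strand) are helicase subunits, and capitals mark E2F letters. In Mki67 (chr7:135716330-135716629, minus strand), Top2a (chr11:99024140-99024439, minus strand), Cdk1 (chr10:69352863-69353162, minus strand) and Plk1 (chr7:122159185-122159484, plus strand), capitals mark the cell cycle homology region (CHR) and CCAAT letters.
Mcm5: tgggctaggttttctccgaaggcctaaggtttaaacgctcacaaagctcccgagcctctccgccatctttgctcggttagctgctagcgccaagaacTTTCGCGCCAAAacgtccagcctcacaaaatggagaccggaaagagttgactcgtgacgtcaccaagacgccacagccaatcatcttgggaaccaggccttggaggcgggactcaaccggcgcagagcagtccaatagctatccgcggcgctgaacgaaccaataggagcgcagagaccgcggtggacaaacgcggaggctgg
Mcm6: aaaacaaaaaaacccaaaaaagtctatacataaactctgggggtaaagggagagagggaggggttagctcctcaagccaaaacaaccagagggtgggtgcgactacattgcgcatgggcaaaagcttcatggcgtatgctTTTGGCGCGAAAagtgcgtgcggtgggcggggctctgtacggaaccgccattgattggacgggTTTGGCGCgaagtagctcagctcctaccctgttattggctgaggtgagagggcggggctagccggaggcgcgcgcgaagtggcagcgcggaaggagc
Mki67: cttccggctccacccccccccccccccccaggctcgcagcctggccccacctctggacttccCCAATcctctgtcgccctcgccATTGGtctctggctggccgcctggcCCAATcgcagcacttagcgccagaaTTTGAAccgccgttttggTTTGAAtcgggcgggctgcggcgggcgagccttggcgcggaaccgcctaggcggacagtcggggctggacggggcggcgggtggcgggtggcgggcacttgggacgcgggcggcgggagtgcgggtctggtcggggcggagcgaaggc
Top2a: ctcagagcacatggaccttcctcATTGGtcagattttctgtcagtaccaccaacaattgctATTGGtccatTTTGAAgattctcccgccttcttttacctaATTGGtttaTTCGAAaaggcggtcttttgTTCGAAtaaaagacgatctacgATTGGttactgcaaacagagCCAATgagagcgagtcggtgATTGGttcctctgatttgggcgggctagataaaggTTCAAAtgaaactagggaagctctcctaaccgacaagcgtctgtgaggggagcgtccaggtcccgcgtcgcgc
Cdk1: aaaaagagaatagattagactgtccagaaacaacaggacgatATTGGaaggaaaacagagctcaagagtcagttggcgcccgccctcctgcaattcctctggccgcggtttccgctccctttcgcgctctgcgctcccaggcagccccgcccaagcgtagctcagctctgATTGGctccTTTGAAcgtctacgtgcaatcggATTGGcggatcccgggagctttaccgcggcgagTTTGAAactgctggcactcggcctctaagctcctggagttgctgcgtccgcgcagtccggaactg
Plk1: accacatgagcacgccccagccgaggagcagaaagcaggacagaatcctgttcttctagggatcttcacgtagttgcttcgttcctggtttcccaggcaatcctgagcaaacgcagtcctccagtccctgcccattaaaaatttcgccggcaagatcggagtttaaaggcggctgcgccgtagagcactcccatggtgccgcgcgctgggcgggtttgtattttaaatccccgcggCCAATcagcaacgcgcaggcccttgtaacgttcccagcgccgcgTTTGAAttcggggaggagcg

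The letters searched on both strands were TTTCCCGC, TTTCGCGC, TTTGCCGC or TTTGGCGC for E2F, TTTGAA or TTCGAA for the CHR, and CCAAT, the box read by the factor NF-Y. Matches of 1 motif may overlap each other, as the opposed E2F matches in Mcm5 and in Mcm6 do. An E2F match was present in 7 of 16 S-phase promoters (43.8%), 1 of 20 mitotic promoters (5%) and 2.32% of all 27025 promoters of that length. The single mitotic match is in Cdk1, where it stays in lower case. A CHR match was present in 3 of 16 S-phase promoters (18.8%), 16 of 20 mitotic promoters (80%) and 19.4% of all promoters. CCAAT was found in 12 of 16 (75%), 17 of 20 (85%) and 37.9%, and CHR together with CCAAT in 3 of 16 (18.8%), 15 of 20 (75%) and 7.7%. These are matches of letters and no binding was measured.

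**Figure D1:**
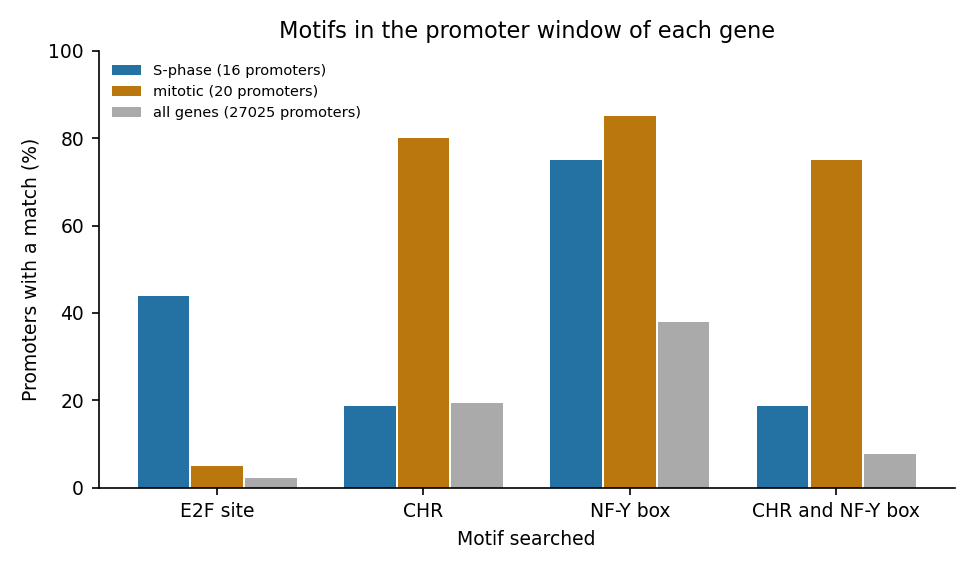
Share of promoter windows (%) with at least 1 match to each motif, for S-phase members, mitotic members and all genes. The E2F bar of the S-phase members stands at 43.8% and the CHR bar of the mitotic members at 80%, against 2.32% and 19.4% of all promoters.

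Depth was 50458473 to 102148079 counts per library in the first set and 26775728 to 78680749 in the second. Levels below are CPM, counts scaled to a common library total, after TMM scaling, whose factors were 0.516 to 1.083 in CLP libraries and 0.946 to 1.187 in the others of the first set. Genes detected per library numbered 13754 to 16903 in CLPs and 9380 to 11526 in the second set. The summed markers fixed for HSCs, GMPs, MEPs and CLPs were highest in LT-HSCs, GMPs, MEPs and CLPs, and none were fixed for CMPs or to tell ST-HSCs from LT-HSCs, with summed GMP markers at 32772 to 45942 CPM in GMPs and summed MEP markers at 17499 to 24153 CPM in MEPs, but the CLP libraries also held GMP markers at 41.8 to 12890 CPM. In LT-HSCs Tet2 itself was at 12.1 to 16.1 CPM in WT and 12.8 to 44.7 CPM in Tet2-/- libraries, on unscaled totals. The counts do not separate the deleted part of the gene, so they check no label, and genotypes are named as labelled. Tmem173, the gene of STING, was at 0 to 113 CPM in the libraries labelled Sting-/-, 0 to 25.5 CPM in those labelled Tet2;Sting DKO and 0 to 51.3 CPM in the WT of that set. Of the 3 libraries labelled Sting-/-, 2, at 61.1 and 113 CPM, were above every WT library. This goes against that label only if the deletion removes the counted part, which these counts do not show either. The study reports loss of STING protein by Western blot in bone marrow cells of both genotypes, not in these libraries. One CLP library, Tet2-/- replicate 2, stood apart, with 12 of the 24 mitotic members at 0 counts.

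How the members differ between populations was asked first, each population against LT-HSCs of the same genotype, with edgeR's quasi-likelihood test, Benjamini-Hochberg adjustment over all genes, and calls at an adjusted p of 0.05 and 2-fold. The LT-HSC libraries are shared by these comparisons. In WT mice GMPs stood highest for replication: 9 of 21 S-phase members rose and none fell, and 5 of 24 mitotic members rose and none fell. Of all 20006 genes tested, 9.93% were called higher and 6.35% lower. The median log2 difference was 1.65 for the S-phase and 1.04 for the mitotic members, beside 0.03 for all genes. Without replicate 3 of every population 6 of the 45 members were called in place of 14, and without replicate 5 there were 8. The mitotic median was 0.62 without replicate 3.

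Helicase subunits were among the members that rose in GMPs. Mcm6 was at 698, 713, 737 and 882 CPM in WT GMPs, with a mean of 758 ± 84.7 CPM (SD, n = 4) against 110 ± 39.4 CPM (SD, n = 3) in WT LT-HSCs, and no GMP library came near an LT-HSC library. Its log2 fold change was 2.82 ± 0.43 (SE; adjusted p = 8.291e-05), and those of Mcm10 and Rrm2, the small subunit of ribonucleotide reductase, were 2.76 and 2.54. Mcm3, Mcm4, Mcm5, Mcm7, Cdt1 and Rrm1 were the other S-phase members called, at 1.26 to 2.45. Among the mitotic members, Plk1, a kinase that drives entry into mitosis, had the highest fold change, 3.55 ± 0.69 (SE; adjusted p = 0.00094), followed by Cdc20, which activates the anaphase-promoting complex, at 2.93 and Ccna2, cyclin A2, at 2.67. Plk1 was at 49.2, 71.5, 87.3 and 102 CPM in WT GMPs and at 2.08, 8.85 and 9.53 CPM in WT LT-HSCs.

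Pcna, the sliding clamp of the polymerases, moved the other way. Its level was 445, 490 and 570 CPM in WT LT-HSCs and 282, 287, 292 and 365 CPM in WT GMPs, so the groups did not overlap, and the log2 fold change of -0.67 ± 0.20 (SE; adjusted p = 0.02028, edgeR) passed the test without the 2-fold limit. Per kilobase of transcript, Pcna was nonetheless the most abundant member in both, with means of 398 CPM per kb in WT LT-HSCs and 243 CPM per kb in WT GMPs. Ube2c, a conjugating enzyme of the anaphase-promoting complex, was second in LT-HSCs at 148 CPM per kb. At the other end of that scale in LT-HSCs was Mcm10, at 1.13 CPM per kb.

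In WT CMPs 4 S-phase members rose (Mcm3, Mcm6, Mcm7 and Rrm2, log2 fold changes 1.12 to 1.88) and 2 mitotic members rose (Plk1 at 2.57 and Ccna2 at 2.26), where 4.17% of all genes were higher and 1.36% lower. In WT MEPs 3 S-phase members rose (Rrm2 at 2.05, Mcm6 at 1.62 and Mcm7 at 1.15) and 3 mitotic members rose (Ccna2 at 2.75, Plk1 at 2.51 and Cenpa, the histone of the centromere, at 1.96), beside 5.16% higher and 7.42% lower of all genes. No member fell in either. The S-phase and mitotic medians were 0.96 and 1.01 in CMPs and 0.95 and 0.97 in MEPs. These counts rest on few libraries: the 6 called members of CMPs became 0 without replicate 2, 3 or 5, and the 6 of MEPs became 3, 1 and 12 without replicate 2, 3 and 4. Fits of 1 population and LT-HSCs alone called 14 members in CMPs (13% of all genes in that fit, in either direction), 18 in MEPs (23.2%) and 24 in GMPs (34.4%). Cyclin E1 was highest in MEPs, at 68.8, 106, 106 and 135 CPM, against 23.1 to 32.7 CPM in WT GMPs and a mean of 6.73 ± 5.29 CPM (SD, n = 3) in WT LT-HSCs, but its log2 difference from LT-HSCs of 3.92 ± 1.33 (SE) did not pass (edgeR adjusted p = 0.05298).

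WT ST-HSCs did not differ detectably from LT-HSCs in any member: edgeR called 0 of 45, and 0 had an unadjusted p under 0.05. DESeq2 also called 0 members. Of all genes, edgeR called 0.175% and DESeq2 3.82% in either direction. In WT CLPs members were called in both directions. There 5 S-phase members fell, Pole by 2.63, Gins1 by 2.38, Prim1 by 1.31, Pcna by 1.23 and Pola1 by 1.14 on the log2 scale, Birc5 of the chromosomal passenger complex fell by 1.16, and Plk1 rose by 2.53. Of all genes 11.0% were higher and 15.0% lower in that comparison, so over all 45 members calls were no more frequent than among all genes. The 7 B cell markers summed to 2755 to 4769 CPM in WT CLPs and 93.5 to 150 CPM in WT LT-HSCs, and their part was not tested. Prim1 and Pcna passed in every fit that left out a replicate number and in a fit of the 2 populations alone, which ended the other 5 calls and called 17.4% of all genes in either direction. Those of Pola1 were lost without replicate 2, 4 or 5, of Gins1 without 3 or 5, of Birc5 without 4 or 5 (-0.66 without 5), of Plk1 without 2 or 3 and of Pole without 3. Prim1, the primase, was at 51.3 ± 8.65 CPM (SD, n = 4) in CLPs and 128 ± 12.7 CPM (SD, n = 3) in LT-HSCs. Most other members spread too widely in CLPs to be ordered, with a median coefficient of variation of 74% over the S-phase and 80.1% over the mitotic members.

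In Tet2-/- mice members of both lists rose from LT-HSCs. The median log2 differences of the S-phase and mitotic members were 1.5 and 1.81 in CMPs, 1.85 and 1.5 in GMPs and 1.58 and 1.48 in MEPs. In CMPs 5 S-phase members rose (Mcm3 to Mcm7, 1.55 to 1.67) and 2 mitotic members rose (Cenpa at 2.66 and Ccnb2, cyclin B2, at 2.01), with 2.47% of all 19415 genes higher and 1.44% lower. In GMPs 7 S-phase members rose, led by Mcm10 at 3.96, Mcm6 at 3.03 and Mcm5 at 2.98, and 4 mitotic members rose, Cdc20 at 4.01, Bub1b of the spindle checkpoint at 3.22, Plk1 at 3.07 and Cenpa at 1.87. The share of all genes called was 9.22% higher and 6.70% lower. In MEPs 7 S-phase members rose, Ccne2 and all 6 of Mcm2 to Mcm7, at 1.37 to 1.88, and 1 mitotic member, Cenpa, at 2.61, beside 5.15% higher and 8.93% lower.

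Tet2-/- CLPs had 5 S-phase members higher and none lower at 2-fold, Mcm6 at 1.95, Mcm5 at 1.65, Mcm2 at 1.38, Mcm3 at 1.30 and Mcm7 at 1.24, and no mitotic member passed, while 9.75% of all genes were higher and 11.0% lower. Without replicate 2, the library that stood apart, 13 members passed, and without replicates 3, 4 and 5 there were 1, 1 and 2. Fits of 1 population and LT-HSCs alone called 0 members in CLPs (8.45% of all genes in that fit, in either direction), 31 in CMPs (9.71%), 26 in GMPs (30%) and 29 in MEPs (22.5%). In Tet2-/- ST-HSCs edgeR and DESeq2 called 0 of 45 members, and by edgeR 1 had an unadjusted p under 0.05. In either direction edgeR called 0.118% of all genes and DESeq2 3.47%. Without replicate 2 of every population the called members became 16 in CMPs (7 with it), 21 in GMPs (11) and 19 in MEPs (8), and without replicates 3, 4 or 5 they were 2, 7 and 2 to 5. Scaling by RLE in place of TMM moved the median of all genes by -0.11 to -0.12 in these CMP, GMP and MEP comparisons and took the share of called genes that were higher in CMPs from 63.2% to 53%, so the log2 values of these populations are relative to that shift. In the WT CLP comparison it moved that median by 0.11. The difference between the genotypes in these contrasts was tested only by the joint fit given further on.

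**Figure D2:**
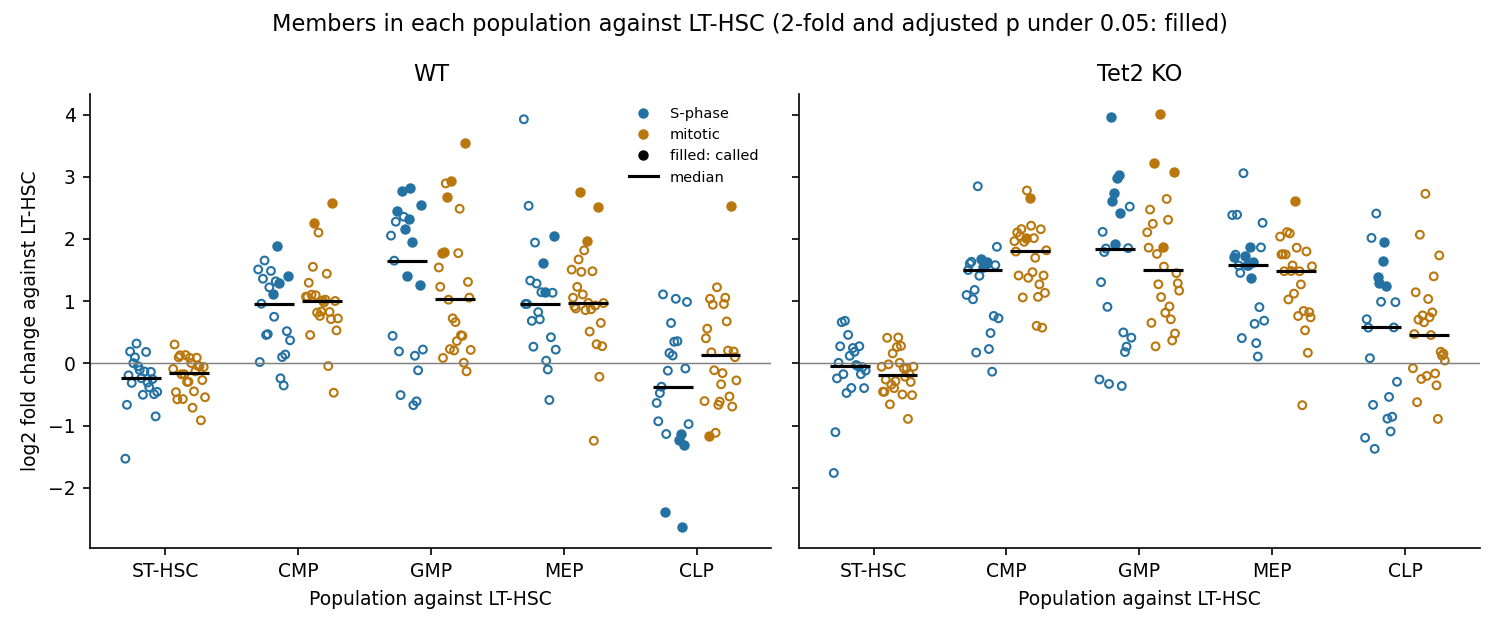
Log2 fold change of each member in 5 populations against LT-HSCs of the same genotype, WT on the left and Tet2 KO on the right. Each point is 1 gene, filled points passed 2-fold and an adjusted p of 0.05, and black bars are medians, which in WT reach 1.65 for the S-phase members in GMPs.

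The sums over each list ordered the WT populations differently. Summed S-phase members were 3850 to 4518 CPM in GMPs, above every other WT library, 2763 to 3668 CPM in MEPs and 2641 to 3246 CPM in CMPs, which overlapped each other, and 1405 to 2296 CPM in the stem cells. Summed mitotic members were 2716 to 3323 CPM in MEPs, 2533 to 3250 CPM in GMPs and 2292 to 3106 CPM in CMPs, all overlapping, and 636 to 2270 CPM in LT-HSCs. The stem cells lay below these 3 progenitor populations on both lists, and CLPs spanned 653 to 2386 CPM on the S-phase side. The highest WT mean of a member was in GMPs for 11 S-phase and 10 mitotic members and in MEPs for 6 and 10. In these bulk samples a smaller share of cycling cells and less of these RNAs per cycling cell cannot be told apart.

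**Figure D3:**
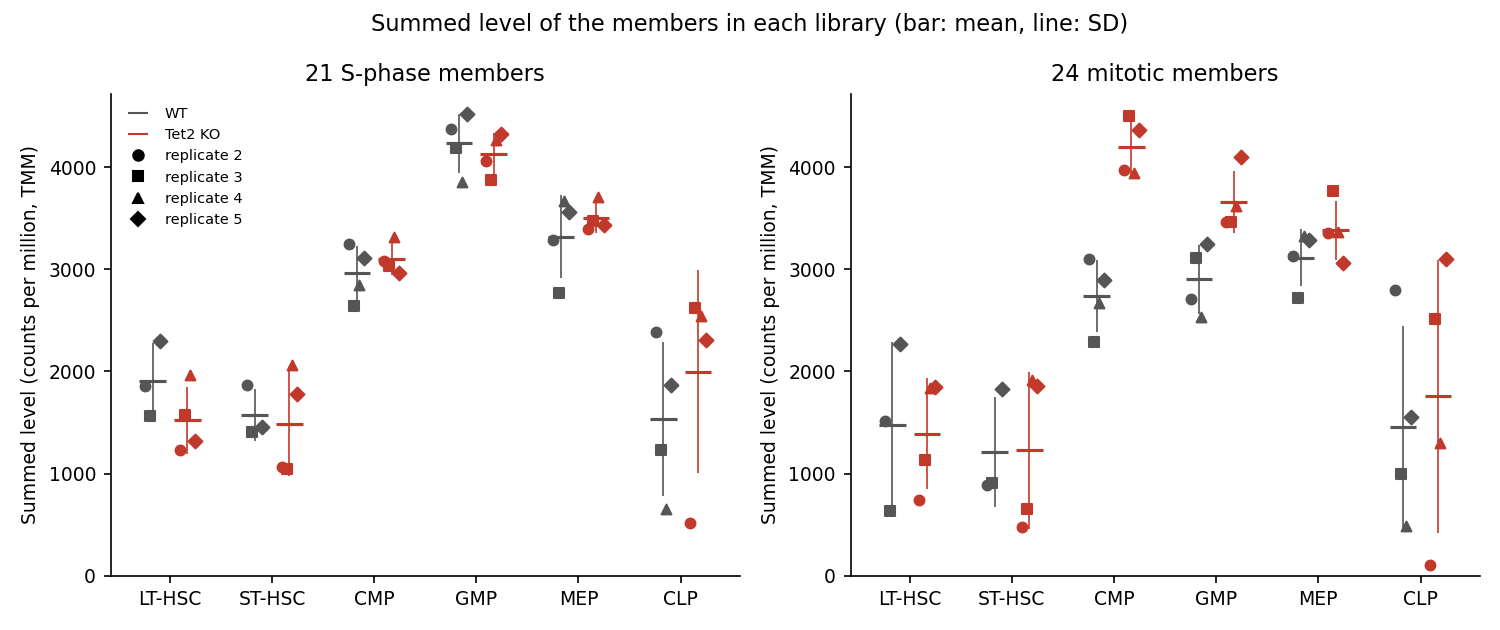
Summed level (CPM after TMM scaling) of the 21 S-phase and the 24 mitotic members in each of 46 libraries, by population, genotype and replicate number, with mean and SD. In CMPs the 4 Tet2 KO libraries lie at 3943 to 4503 CPM on the mitotic side, above the 4 WT libraries at 2292 to 3106 CPM, while the S-phase sums overlap.

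The main question of the series, the effect of Tet2 loss within each population, was asked next, with 2 groups per fit and the same test. The number of members past an adjusted p of 0.05 was 18 in CMPs, 11 in GMPs and 4 in MEPs, and with the 2-fold limit it was 1, 3 and 2. At an adjusted p of 0.05, 15 of 24 mitotic members rose in Tet2-/- CMPs and none fell, whereas 1.71% of all 16047 genes tested were higher and 5.18% lower. Of the 21 S-phase members 2 rose and 1 fell. With the 2-fold limit 1 member was called, Kif20a, where 0.654% of all genes were higher and 3.92% lower. The median log2 fold change was 0.71 for the mitotic members, 0.10 for the S-phase members and 0.03 for all genes.

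Chromosome and centromere genes moved together. Mki67, which coats mitotic chromosomes and marks cycling cells, was at 136, 141, 166 and 177 CPM in WT and 227, 242, 269 and 326 CPM in Tet2-/- CMPs. Its log2 fold change was 0.76 ± 0.14 (SE; edgeR adjusted p = 0.01054). Every Tet2-/- library lay above every WT library. Top2a, the topoisomerase that untangles sister chromatids, went from 211, 233, 299 and 319 CPM to 442, 444, 467 and 510 CPM (0.80 ± 0.14, adjusted p = 0.007827), again without overlap. All 3 centromere members rose, Cenpa by 0.87, Cenpf by 0.91 and the motor Cenpe by 0.74.

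All 4 cytokinesis members rose as well. Kif20a, a motor of the central spindle, was at 17.8, 31, 33.1 and 44.2 CPM in WT and 56.4, 58.6, 69.8 and 71.3 CPM in Tet2-/- CMPs (1.01 ± 0.25, edgeR adjusted p = 0.04152), and Prc1, which bundles midzone microtubules, Anln, a scaffold of the contractile ring, and Kif23 rose by 0.83, 0.78 and 0.71. The genotypes did not overlap for Kif20a, nor for Prc1 (37.9 to 53.5 CPM against 73.3 to 92.6 CPM). Of the 3 spindle members Nusap1 and Tpx2 rose by 0.80 and 0.76. Birc5 rose by 0.69, Ube2c by 0.81 and Bub1b by 0.71. The call of Kif20a is lost without a filter on low counts, where 0 members are called, and without Tet2-/- replicate 2, 3 or 5 or WT replicate 2, 3 or 4, and its gene shares 4930 bases with Cdc23 and 240 with Brd8, while Prc1 shares 21669 bases with Rccd1, in counts whose use of strand is not given in the sources used here.

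The kinases and cyclins were less uniform. Cdk1, the kinase that drives entry into mitosis, was at 119, 150, 161 and 192 CPM in WT and 226, 232, 253 and 261 CPM in Tet2-/- CMPs (0.63 ± 0.14, edgeR adjusted p = 0.02854), with every Tet2-/- library above every WT one, but the call is lost without Tet2-/- replicate 3, 4 or 5 or WT replicate 4 or 5. Its partner Ccnb1, cyclin B1, did not pass, at 111, 166, 178 and 288 CPM against 242, 251, 271 and 274 CPM (0.47 ± 0.24, adjusted p = 0.3406), and 1 WT library, replicate 2, was the highest of all 8. Without that replicate it read 0.76 and passed. Plk1 did not pass either, at 0.66 ± 0.22 (adjusted p = 0.1215), though it passed without WT replicate 5, at 0.86, nor did Aurka and Aurkb, the other mitotic kinases, and the 3 kinases ranged from 0.43 to 0.66. The mitotic members with a value below 0 were Ccna2 (-0.67 ± 0.19, adjusted p = 0.071) and Cdc20 (-0.06 ± 0.27, adjusted p = 0.9434).

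On the S-phase side the helicase subunit Mcm6 fell, from 377, 387, 400 and 441 CPM in WT to 219, 230, 264 and 274 CPM in Tet2-/- CMPs (-0.72 ± 0.10, edgeR adjusted p = 0.002808), without overlap. Rrm1, the large subunit of ribonucleotide reductase, went from 199, 208, 209 and 221 CPM to 291, 324, 359 and 370 CPM (0.67 ± 0.10, adjusted p = 0.003826), and Ccne2, cyclin E2, rose by 0.67. The representatives Mcm5 (-0.22), Cdc6 (0.57), Pcna (0.10), Rrm2 (0.29) and Ccne1 (-0.53) had edgeR adjusted p of 0.08134 to 0.7727. Ccne1 read -0.05 without WT replicate 2 and -0.23 without Tet2-/- replicate 4. Cdt1 read -1.19 ± 0.34 with an adjusted p of 0.07757.

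Summed over the list, the mitotic members took 2739 ± 348 CPM (SD, n = 4) in WT and 4195 ± 282 CPM (SD, n = 4) in Tet2-/- CMPs, with no overlap, and the S-phase members 2960 ± 271 CPM and 3097 ± 156 CPM, with overlap. The ratio of the mitotic to the S-phase sum was 0.868 to 0.957 in WT and 1.19 to 1.49 in Tet2-/- CMPs. A marker list of another population moved with this result. The 8 MEP markers summed to 1454 to 2915 CPM in WT CMPs and 4739 to 8799 CPM in Tet2-/- CMPs, 3 of the 8 were called higher (Car1, Car2 and Epor) and 1 lower (Klf1), and their part in the result was not tested. The share of mitochondrial counts moved as well, from 5.94% to 6.57% in WT up to 7.85% to 8.37% in Tet2-/- CMPs, and its part was not tested either. Depth was 63166885 to 70924660 counts in WT and 71372007 to 102148079 in Tet2-/- CMPs, and genes detected numbered 18569 to 19012 and 19119 to 19463. Neither overlapped between genotypes, and their part was not tested. In one fit of all 46 libraries, where the spread of the stem cell and CLP libraries is shared, 0 of the 15 mitotic and 0 of the 3 S-phase calls passed, at a mitotic median of 0.72. Leaving out WT replicate 4 left 7 mitotic members past the adjusted p, and leaving out Tet2-/- replicate 4 or 5 left 9.

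**Figure D4:**
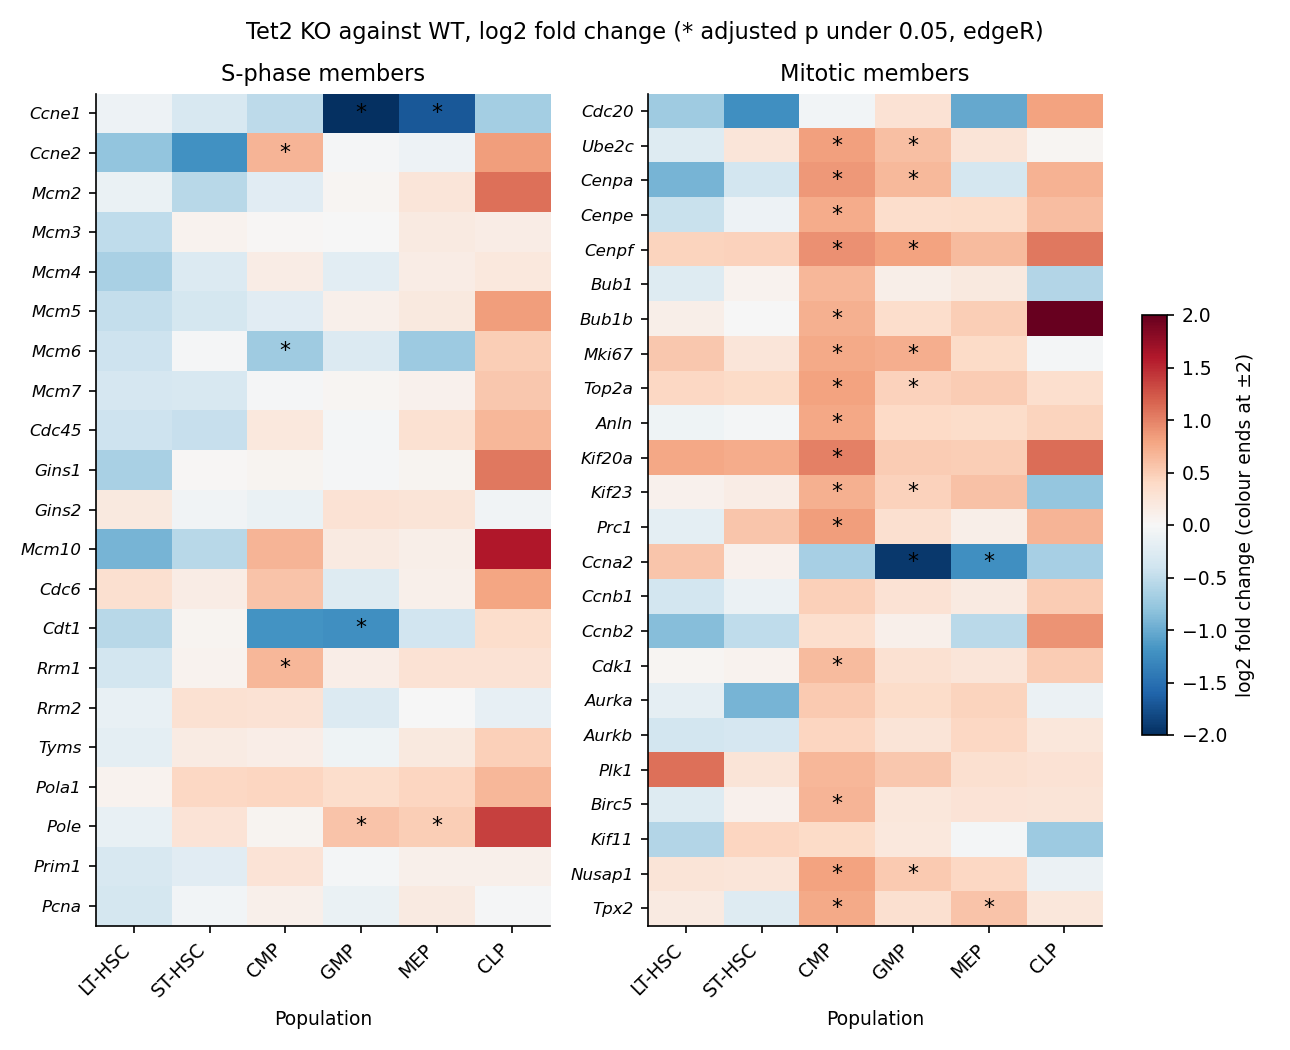
Log2 fold change of Tet2 KO against WT for each S-phase and mitotic member in the 6 populations, with an asterisk where edgeR's adjusted p is under 0.05 and colours that end at a log2 value of 2 in either direction. The CMP column of the mitotic panel holds 15 asterisks, and Ccna2 and Ccne1 are blue with an asterisk in GMPs and MEPs.

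In GMPs members of both lists differed between genotypes. At an adjusted p of 0.05, 7 mitotic members rose and 1 fell, and 1 S-phase member rose and 2 fell, beside 1.07% of all 16563 genes higher and 5.49% lower. With the 2-fold limit 3 members fell, Ccne1, Ccna2 and Cdt1, and none rose, where 0.308% of all genes were higher and 4.07% lower. Falls over all members were thus little more frequent than among all genes. The median was 0.36 for the mitotic members, 23 of 24 of which were above 0, and -0.02 for the S-phase members.

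Ccne1 had the lowest fold change among the members in GMPs. Cyclin E1, which opens S phase, was at 23.1, 24.5, 28.1 and 32.7 CPM in WT GMPs and 3.84, 4.86, 5.44 and 5.62 CPM in Tet2-/- GMPs, with no overlap, and fell by 2.49 ± 0.19 on the log2 scale (SE; edgeR adjusted p = 1.435e-05). Ccna2, cyclin A2, which acts from S phase into G2, went from 158, 202, 218 and 257 CPM to 51.3, 54.2, 56.9 and 61.3 CPM and fell by 1.93 ± 0.15 (adjusted p = 1.349e-05), so that its lowest WT library was above its highest Tet2-/- library. Cdt1, the origin licensing factor, was at 46.3, 68.9, 72.8 and 118 CPM in WT and 21.9, 28.1, 31.5 and 51.4 CPM in Tet2-/- GMPs. It fell by 1.23 ± 0.30 (adjusted p = 0.03424) with 1 Tet2-/- library inside the WT range, and the call is lost in 6 of the 8 fits that leave out 1 library. Ccna2 shares 863 bases with Exosc9. Pole, the leading strand polymerase, rose by 0.57 ± 0.14 (adjusted p = 0.03151), from 35.9, 36, 47.4 and 48.4 CPM to 59.4, 60.4, 66.1 and 67.6 CPM. Among the fits that leave out 1 library, a rise of an S-phase member passed only without WT replicate 2 or 5.

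The 7 mitotic members that rose in GMPs were Mki67, Cenpf, Cenpa, Ube2c, Nusap1, Kif23 and Top2a, at 0.46 to 0.81, and all of them also rose in CMPs, a comparison with other libraries. Mki67 was at 102, 109, 124 and 134 CPM in WT and 178, 192, 200 and 221 CPM in Tet2-/- GMPs (0.72 ± 0.13, edgeR adjusted p = 0.004789), and Top2a at 306, 327, 328 and 333 CPM against 441, 456, 460 and 469 CPM (0.46 ± 0.09, adjusted p = 0.007161). Neither overlapped between genotypes. Cdk1 (0.30), Plk1 (0.54) and Ccnb1 (0.29) did not pass, and neither did the S-phase representatives Mcm5, Cdc6, Pcna and Rrm2, at -0.27 to 0.10. Summed mitotic members were 2533 to 3250 CPM in WT and 3459 to 4097 CPM in Tet2-/- GMPs, whereas the S-phase sums overlapped at 3850 to 4518 and 3878 to 4325 CPM. The ratio of the sums was 0.62 to 0.744 in WT and 0.848 to 0.947 in Tet2-/- GMPs. The MEP markers stayed low in GMPs, at 57.1 to 125 CPM in WT and 73.5 to 173 CPM in Tet2-/- libraries, with 1 of 8 called higher. The 6 macrophage markers summed to 98.8 to 138 CPM in WT and 143 to 181 CPM in Tet2-/- GMPs, without overlap. Csf1r, the receptor of a macrophage growth factor, carried that difference, 0 of the 3 markers tested were called, C1qa, C1qb and C1qc were at most at 0.377 CPM in any GMP library, and their part in the result was not tested. Mitochondrial counts took 3.64% to 4.60% in WT and 4.74% to 5.09% in Tet2-/- GMPs, a difference whose part was not tested. In the fit of all 46 libraries 0 of the 11 members passed, and without Tet2-/- replicate 3 or 5 or WT replicate 2 or 4 the 8 mitotic calls became 5, while without Tet2-/- replicate 2, 3 or 5 or WT replicate 3 the 3 S-phase calls became 1.

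In MEPs 1 mitotic member rose and 1 fell, and 1 S-phase member rose and 1 fell, at an adjusted p of 0.05, beside 0.656% higher and 5.01% lower of all 14934 genes. Cyclins E1 and A2 fell here too. Ccne1 was at 68.8, 106, 106 and 135 CPM in WT and 27.5, 28.3, 33.5 and 39.6 CPM in Tet2-/- MEPs and fell by 1.70 ± 0.22 (SE; edgeR adjusted p = 0.001591). Ccna2 went from 167, 218, 239 and 298 CPM to 81.1, 96.3, 107 and 110 CPM and fell by 1.23 ± 0.18 (adjusted p = 0.003087). Neither overlapped, and both passed the 2-fold limit, where 0.147% of all genes were higher and 4.21% lower. Falls were thus about as frequent over all members as among all genes.

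Tpx2, which activates Aurora A at the spindle, rose from 47.1, 53.7, 61.8 and 63.3 CPM to 73.8, 86.2, 86.9 and 90.7 CPM (0.57 ± 0.13, edgeR adjusted p = 0.03815), and Pole rose by 0.49 ± 0.11 (adjusted p = 0.03157). Mki67 was at 166 to 179 CPM in WT and 199 to 254 CPM in Tet2-/- MEPs, without overlap, but at 0.39 ± 0.11 it did not pass (adjusted p = 0.07958), and neither did Top2a at 0.51 ± 0.17 (adjusted p = 0.1472). Mcm6 read -0.72 ± 0.20 (adjusted p = 0.08746) and Cdc20 -1.02 ± 0.26 (adjusted p = 0.06). The list medians were 0.34 for the mitotic and 0.16 for the S-phase members, and both summed levels overlapped between genotypes. Of the 7 erythroblast markers 2 were called lower in Tet2-/- MEPs, at sums of 213 to 264 CPM against 264 to 616 CPM in WT, and their part in these values was not tested. In the fit of all 46 libraries 0 of these 4 members passed. Leaving out 1 library took the 2 S-phase calls to 1 in 7 of 8 fits and the 2 mitotic calls to 1 in 6. No S-phase member rose past the adjusted p in any of these 8 fits, and a mitotic member did so only without Tet2-/- replicate 3.

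**Figure D5:**
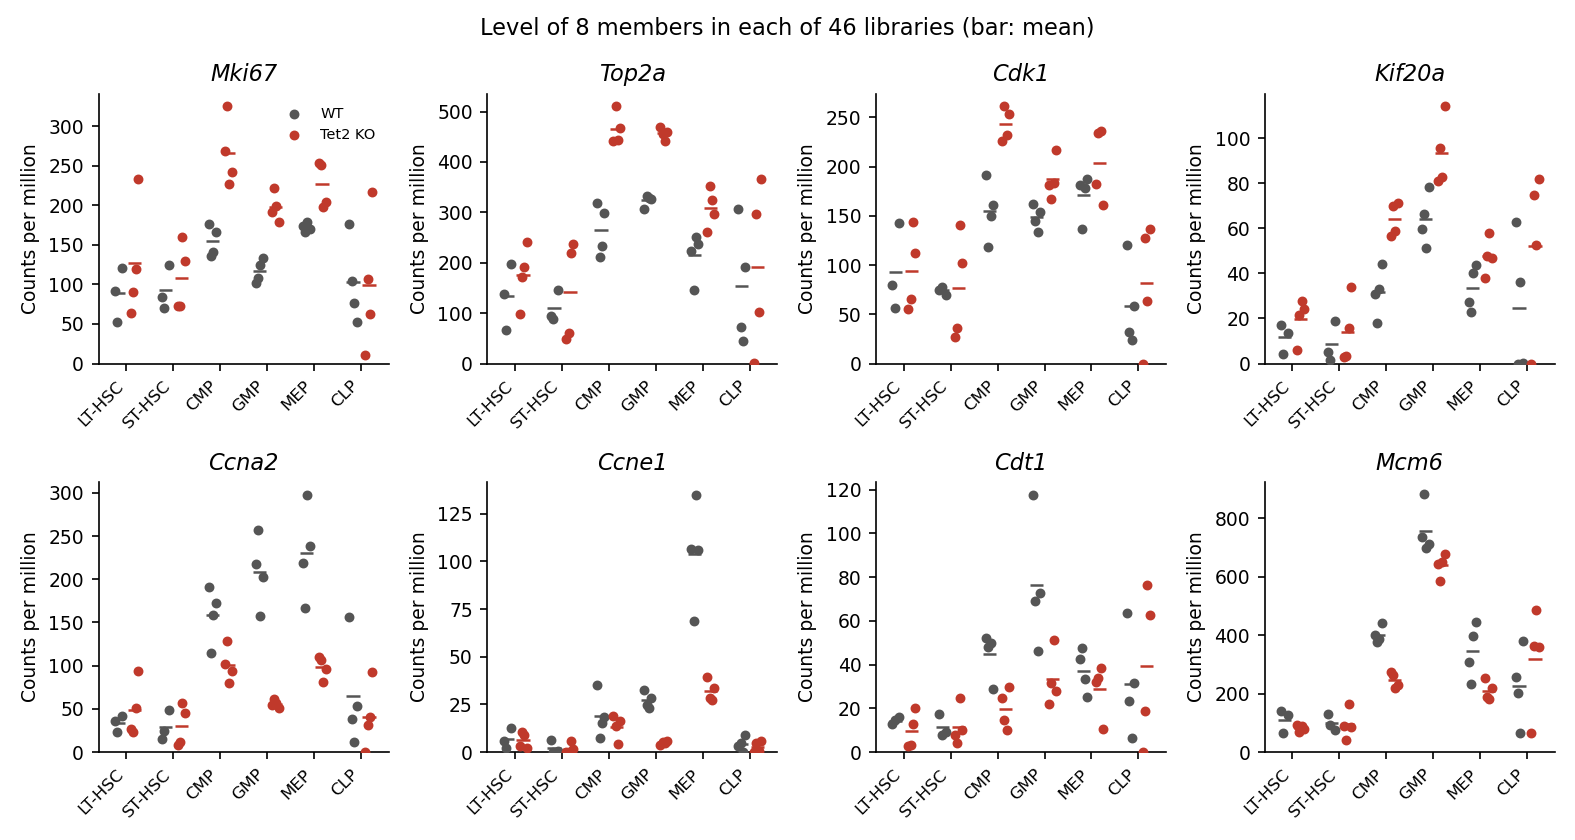
Level (CPM after TMM scaling) of 8 members in each of 46 libraries, WT grey and Tet2 KO red, with the mean as a bar. In CMPs and GMPs all Tet2 KO points of Mki67 and Top2a lie above the WT points, and in GMPs and MEPs all Tet2 KO points of Ccna2 and Ccne1 lie below them, while CLP points scatter from near 0.

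No member passed in stem cells or CLPs. In LT-HSCs edgeR and DESeq2 called 0 of 45, where edgeR called 0.0245% of all genes and DESeq2 1.38%. By edgeR 2 S-phase members, both lower, had an unadjusted p under 0.05, a threshold whose share of all genes is not reported here. These were Ccne2, at 24.1, 32 and 47.8 CPM in WT and 16.1, 19.4, 20.3 and 23.2 CPM in Tet2-/- LT-HSCs (-0.79 ± 0.32), and Mcm4 (-0.64 ± 0.27), with adjusted p of 0.8879 and 0.9064. Ccne2 was the only member whose groups did not overlap there, and the share of all genes without overlap is not reported here. Its gene shares 5622 bases with Ints8. Mki67 was at 52.8, 91.7 and 121 CPM in WT and 63.8, 90.6, 120 and 234 CPM in Tet2-/- LT-HSCs. The medians were -0.35 for the S-phase and -0.13 for the mitotic members, with 0.06 for all genes. Without WT replicate 5 the S-phase median was -0.20, Ccne2 read -0.50 and Mcm4 -0.39. Leaving out 1 library moved the mitotic median from -0.44 (without WT replicate 3) to 0.46 (without WT replicate 5), and it was also above 0 without Tet2-/- replicate 2 or 3.

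In ST-HSCs both tools again called 0 of 45, where edgeR called 0.0185% of all genes and DESeq2 1.93%. By edgeR 1 member had an unadjusted p under 0.05, a threshold whose share of all genes is not reported here. That member was Cdc20, at 19.5, 36 and 43.2 CPM in WT and 6.11, 8.62, 17.2 and 23.1 CPM in Tet2-/- ST-HSCs (-1.23 ± 0.50, edgeR adjusted p = 0.7661), and Ccne2 was next (-1.21 ± 0.73, adjusted p = 0.9685; -0.77 without WT replicate 5). In CLPs 0 of 45 passed by either tool, where edgeR called 0.00766% of all genes and DESeq2 2.55%. By edgeR 0 members had an unadjusted p under 0.05. The smallest p were those of Ccnb2 (0.90 ± 0.67) and Pola1 (0.66 ± 0.55), which ran from 0.19 (without Tet2-/- replicate 5) to 1.27 and from 0.26 (without Tet2-/- replicate 3) to 0.98 when 1 library was left out. Mki67 spanned 52.3 to 177 CPM among WT and 11.2 to 217 CPM among Tet2-/- CLP libraries. The number of members called stayed 0 in these 3 populations when any 1 library was left out, the CLP library with 12 mitotic members at 0 counts included.

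Precision differed between the populations. The median coefficient of variation of the members within a group was 8.37% to 18.8% in CMPs, GMPs and MEPs, 27.8% to 70.7% in the stem cells and 71.9% to 83.8% in CLPs, and the standard error of Mki67 was 0.14 in CMPs, 0.46 in LT-HSCs and 0.74 in CLPs.

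Whether the genotype difference itself varied between populations was tested in the fit of all 46 libraries by its 5 genotype-by-population terms. None of the 45 members passed edgeR's quasi-likelihood test after adjustment, while 2.65% of the 22360 genes tested did. The one member with an unadjusted p under 0.05 was Cenpa, at 0.01949 and, adjusted by edgeR over all genes, 0.2308, and DESeq2 was not run on these terms. No member is therefore shown to respond to genotype in one population and not in another. For the 10 representatives a two-sided exact permutation test of the libraries was also run in each population, 60 tests in all. The exact permutation p was 0.02857, the smallest that 4 against 4 or 3 against 4 libraries allow, for Cdc6, Mki67, Top2a and Cdk1 in CMPs, for Ccne1, Mki67, Top2a and Cdk1 in GMPs and for Ccne1, Mki67 and Top2a in MEPs. Adjusted over the 60 tests each of these was 0.1558, and no test reached it in LT-HSCs, ST-HSCs or CLPs.

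Other genes of the same pathways were taken from fixed lists. Of 70 other mitosis genes 11 rose and none fell in Tet2-/- CMPs at an adjusted p of 0.05, where 1.71% of all genes were higher and 5.18% lower (among them Hmmr, a spindle protein, at 0.97 and Ckap5, which lengthens microtubules, at 0.68), 6 rose and 1 fell in GMPs (1.07% and 5.49% of all genes) and 4 rose and 1 fell in MEPs (0.656% and 5.01%). The one that fell in GMPs was Lmnb1, lamin B1 of the nuclear envelope, by 2.54, and in MEPs it was Trip13, by 1.24. Of 50 other replication genes 3 rose and 2 fell in CMPs, where 1.71% of all genes were higher and 5.18% lower. In both GMPs and MEPs 0 rose and 3 fell, and the falls were near the share of all genes that were lower. Dut, which clears dUTP, fell in all 3, by 1.67, 0.57 and 3.03, and Dbf4, the activator of an origin kinase, fell by 0.85 in GMPs and 0.90 in MEPs. Of 20 regulators of these genes, among them the E2F and Rb families, 1 passed, Tfdp1, a partner of E2F factors, which fell by 0.66 in GMPs. None of these lists had a gene past the adjusted p in LT-HSCs, ST-HSCs or CLPs.

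The second set compared LT-HSCs of mice labelled as lacking STING, alone or together with Tet2. Summed S-phase members were 1799, 1854 and 2083 CPM in WT, 906, 2500 and 3490 CPM in the libraries labelled Sting-/- and 2890, 4529 and 5278 CPM in those labelled Tet2;Sting DKO, so every DKO library lay above every WT library, and the Sting-/- libraries reached from below the lowest WT library to above the lowest DKO library. Summed mitotic members were 559, 696 and 956 CPM in WT, 657, 1072 and 1343 CPM in Sting-/- and 427, 1181 and 2106 CPM in DKO libraries, with overlap throughout. edgeR called no member in any pair of these groups, which share libraries with each other. Marker lists of lymphoid cells moved with the DKO sums: the 7 B cell markers summed to 1626 to 2802 CPM in DKO and 649 to 1103 CPM in WT libraries, and the 5 T and NK cell markers found in the table to 110 to 129 CPM against 47.5 to 60.8 CPM, both without overlap, with none of either list called. Cd74 carried the first and Nkg7 the second, while Ms4a1, Cd3e, Cd3d and Cd8a were at 0 counts in all 9 libraries and Cd79a had at most 4 counts in any. Their part in the sums was not tested.

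For DKO against WT edgeR called 0 of the 19 S-phase and 0 of the 23 mitotic members tested, where 0.657% of all genes were called. At an unadjusted p under 0.05 by edgeR, 6 S-phase and 1 mitotic member were higher and 1 of each was lower. The share of all genes at that looser threshold is not reported here. DESeq2 called 5 members and 13% of all genes. Pcna was at 293, 381 and 577 CPM in WT and 1010, 1036 and 1191 CPM in DKO libraries (1.30 ± 0.30, edgeR adjusted p = 0.1255). Mcm6 went the other way, at 292, 343 and 390 CPM in WT and 47.8, 63.6 and 137 CPM in DKO libraries (-2.12 ± 0.47, adjusted p = 0.1199). Both pairs of groups were apart, and the medians were 1.24 for the S-phase and 0.83 for the mitotic members. The mitotic median was -0.15 without DKO replicate 3, 0.34 without WT replicate 1, 0.55 without DKO replicate 2 and 1.38 without WT replicate 2. For Sting-/- against WT edgeR called 0 members and 0% of all genes, while DESeq2 called 1 member and 3.75% of all genes. By edgeR 2 members had an unadjusted p under 0.05, a threshold whose share of all genes is not reported here. The 2 were Mcm6, at 51.5, 69.9 and 200 CPM in Sting-/- libraries (-1.65 ± 0.53), and Ube2c, at 6.73, 13.8 and 14 CPM in WT and 33.6, 72.1 and 102 CPM in Sting-/- libraries (2.60 ± 1.01).

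For DKO against Sting-/- edgeR called 0 members and 0.159% of all genes, while DESeq2 called 3 members and 8.1% of all genes. By edgeR 3 mitotic members had an unadjusted p under 0.05, a threshold whose share of all genes is not reported here. Cdc20 was at 57.8, 78.1 and 135 CPM in Sting-/- libraries and 0.126, 1.12 and 7.77 CPM in DKO libraries (-4.91 ± 1.64, edgeR adjusted p = 0.4368), while WT lay at 42.6, 102 and 132 CPM. Kif11, the motor that pushes spindle poles apart, was at 7.81, 29.8 and 86.2 CPM in DKO libraries and at or near 0 in the others but for 1 WT library at 18.1 CPM, so no fold is given. Single genes were often at 0 in this set, with 9 mitotic members at 0 counts in DKO replicate 1, and Mcm5 ran from 0.114 to 228 CPM within the Sting-/- group.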

How the data were processed

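Bone marrow cells were sorted on surface markers, 200 cells per library by the labels (the study's methods give another number), and their RNA amplified by SMART-Seq2. The authors trimmed reads with Trim Galore, aligned them with HISAT2 to mm10 and deposited raw counts per gene, not normalized, in 2 tables. The submitters' notes give Trim Galore 0.6.7 and the study's methods another version. The counting program, its annotation and its use of strand are not given in the sources used here. Amplified reads without molecular identifiers are not independent molecules. 3 broken lines of the second table were dropped, leaving 35973 genes, and the tables were not joined.

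Counts were tested with edgeR 4.0.16 (filterByExpr, TMM, quasi-likelihood test, Benjamini-Hochberg adjustment over all genes tested, calls at 0.05 and 2-fold), in R 4.3.3. Genotypes were compared with 2 groups per fit, populations with 1 fit per genotype, and interactions over 46 libraries. DESeq2 1.42.0, RLE scaling, no filter, a replicate block, other thresholds, other sample choices and leaving out each library were tried. Exact permutation tests used log2(CPM + 1). The procedure was tested on simulated data. Summed levels carry no test. Values of some genes of the wider lists are not reported here.

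Named members were 10 representatives fixed by role, up to 6 called members of largest change per direction, or the 2 of smallest p where none was called. Others were named after their values were seen, and the promoters to print were chosen likewise. The members and lists were chosen with earlier results of these data known. Promoters came from RefSeq on GRCm38.p6, and gene overlaps from its annotation of that assembly. Member lengths, from the length column of the second table, had medians of 3.37 kb (S-phase) and 3.4 kb (mitotic). Tested genes of 3 to 4 kb had median genotype log2 differences of -0.01, 0.03 and 0.10 in CMPs, GMPs and MEPs.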

Additional observations from a re-analysis of the deposited data

Results flagged for a closer look

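Some values stood far from the other libraries of their group by Dixon's test at the 95% level, which was applied to the 2 summed levels and the 10 representative members in groups of 4 libraries. It marked 6 of 120 groups (5%), and chance marks about 1 in 20. In CLPs the summed S-phase level of Tet2-/- replicate 2 was 515.95 CPM, where the other Tet2-/- libraries were at 2309 to 2622 CPM. In LT-HSCs Cdc6 was at 39.475 CPM in Tet2-/- replicate 3 and at 10.2 to 11.2 CPM in the others, and Plk1 was at 5.8968 CPM in Tet2-/- replicate 4 and at 16.3 to 18.3 CPM in the others. Pcna was at 364.83 CPM in WT GMP replicate 2, against 282 to 292 CPM. Cdk1 was at 136.89 CPM in WT MEP replicate 3, and Plk1 at 56.451 CPM in WT CMP replicate 5, against 33.5 to 35.2 CPM.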

How the results depend on the processing

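Genotype counts of members called (1 in CMPs, 3 in GMPs, 2 in MEPs) became 0, 0 and 0 in one fit of 46 libraries and 18, 11 and 4 without a fold limit. In CMPs DESeq2 gave 2, where it called 7.06% of all genes. No filter gave 0 there, the replicate block 0 and an unadjusted p 2, which also gave 1 in ST-HSCs. At an adjusted p of 0.05, the S-phase counts of 3, 3 and 2 and the mitotic counts of 15, 8 and 2 in CMPs, GMPs and MEPs were all 0 in one fit. DESeq2 gave 6 S-phase members in CMPs and 8 mitotic members in MEPs, no filter gave 1 and 5 in GMPs and 1 and 1 in MEPs, and the replicate block gave 6 mitotic members in CMPs, 1 S-phase member in GMPs and 1 and 1 in MEPs. Against LT-HSCs, fits of only 2 populations gave 14, 24, 18 and 2 members in WT CMPs, GMPs, MEPs and CLPs (6, 14, 6 and 7 with all) and 31, 26, 29 and 0 in Tet2-/- (7, 11, 8 and 5 with all). DESeq2 gave 12 in WT MEPs, where it called 20.1% of all genes, and 9 in Tet2-/- CLPs, where it called 27.7%. No filter gave 4 in Tet2-/- CMPs and 3 in CLPs, and the block 10 in WT MEPs and 3 in Tet2-/- CLPs. Shares of all genes under no filter and under the block are not reported here. In the second set DESeq2 gave 5, 1 and 3. The cause of these moves was not tested.

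Leaving out 1 library gave 0 to 1 called members in CMPs, 7 to 13 mitotic members at the adjusted p there, 1 to 2 S-phase and 5 to 7 mitotic in GMPs and 1 to 2 and 1 to 3 in MEPs. Leaving out a replicate number gave 0 to 9, 6 to 19 and 1 to 12 in WT CMPs, GMPs and MEPs, and 2 to 16, 7 to 21, 2 to 19 and 1 to 13 in Tet2-/- CMPs, GMPs, MEPs and CLPs. The sign changed for Pcna in CMPs (-0.0059 to 0.198), Cdc6 in MEPs (-0.0443 to 0.257) and Rrm2 in MEPs (-0.192 to 0.138, and 0.0464 with the replicate block), none of them called. Of the medians given for genotypes, that of the S-phase members in GMPs also changed sign (-0.07 to 0.01), and those in CMPs and MEPs ran from 0.04 to 0.16 and 0.05 to 0.18. The other 93 counts under a changed setting stayed within 1.5 times of the main count. Same-numbered libraries did not deviate together (r -0.04 to 0.08 between genotypes, 22 pairs, 8 of which correlated best with their own number), and neither the labels nor the methods say that a number marks a mouse. Between populations, r was 0.01 to 0.10 in WT, where 14 of 15 pairs correlated best with their own number, a hint from the data and not the design, and -0.05 to 0.21 in Tet2-/-, where 4 of 20 pairs were above 0.1 and 7 correlated best with their own. As not every pair exceeded 0.1, fits without the block are given as the main values. If a number does mark a mouse, the fits across populations treat libraries of the same mouse as independent.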

Other observations

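In the stem cells of Tet2-/- mice the mitotic sums of replicates 4 and 5 were above those of replicates 2 and 3 in both populations. Tet2-/- LT-HSCs were at 745 and 1130 CPM in replicates 2 and 3 and 1838 and 1845 CPM in replicates 4 and 5. Tet2-/- ST-HSCs were at 476 and 655 CPM in replicates 2 and 3 and 1921 and 1859 CPM in replicates 4 and 5. In WT, replicate 5 was highest in both, at 2270 CPM in LT-HSCs and 1828 CPM in ST-HSCs, while replicates 2 and 3 were at 1514 and 636 CPM in LT-HSCs and 893 and 911 CPM in ST-HSCs, a different order in each. Whether libraries of the same number came from the same mouse is not given in the sources used here, and this pattern was noticed in the data and not tested.

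Among the wider pathway lists, chosen after their values were seen, Aspm, which focuses spindle poles, rose by 1.33 in Tet2-/- CMPs and 1.10 in GMPs, and Ccnf by 1.39 and 0.90. Chaf1a, a subunit of a histone chaperone that follows the fork, fell by 1.11 in GMPs, and Rfc5 of the clamp loader fell by 0.95 in CMPs and 1.76 in MEPs on the log2 scale. Each passed edgeR's quasi-likelihood test, with adjusted p of 0.004385 to 0.02968.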
